A study of Mus musculus with 12 samples.

Results

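Elastic fibre and crosslinking genes were followed across 12 RNA-seq libraries. The cells were mouse fibro-adipogenic progenitors (FAPs), interstitial mesenchymal cells of muscle, kept in culture. The set holds 10 genes of the 55335 gene rows in each count file, chosen by symbol: Eln, Fbn1, Fbln5, Efemp1, Efemp2, Mfap2, Mfap4, Lox, Loxl1 and Ltbp4. All 10 were matched to 1 Ensembl ID each, and all 10 passed the filter on low counts that left 16597 genes for testing. The libraries fall into 4 groups of 3. Per the labels, cells came from limb muscle, were sorted as 7AAD-, Lin-, Vcam-, Sca1+ and were cultured with 20% fetal bovine serum in alpha-MEM. WT cultures received ethanol. Bap1KO cultures received 1 µM 4-hydroxytamoxifen (4-OHT), with the medium replaced after 24 h, to delete Bap1, which encodes a nuclear deubiquitinase. Smn1OE cultures had the same 4-OHT treatment and carried a human SMN vector. SMN is the assembly factor of spliceosomal snRNPs. Smn1OE_K186R cultures differed from these in that the vector encoded SMN with the K186R change. No group had an empty vector, SMN without 4-OHT, or 4-OHT with Bap1 intact, so the effects of vector, 4-OHT and genotype cannot be told apart. The labels conflict on the Cre driver: Rosa-CreER appears under treatment, and Prrx1Cre with floxed Bap1 as the source of the 4-OHT groups. The labels do not say whether replicates came from separate animals, so the p-values measure the spread between these samples.

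Library totals lay between 51.2 and 68.2 M counts. WT and Bap1KO libraries shared 3 culture media batches and the SMN libraries shared another 3. Xist, the RNA of the inactive X chromosome, lay between 197 and 305 CPM in the WT and Bap1KO libraries and under 1 CPM in every SMN library. Batch, sex-linked expression and SMN vector therefore cannot be told apart in any comparison of an SMN group with WT or Bap1KO. Bap1KO replicate 2 lay at -6.59 on the first principal component of log2 CPM, nearer to the SMN libraries (24.6 to 47.0) than the other two Bap1KO libraries (-36.4 and -21.2). The summed level of 8 FAP markers in CPM ranged from 14242 to 20679 for WT and from 9044 to 15878 for Bap1KO. It ranged from 3530 to 5378 for Smn1OE and from 4187 to 5856 for Smn1OE_K186R. By group mean Col1a1 (12679 CPM in WT and 9441 CPM in Bap1KO) was the largest part of the sum, followed by Col3a1. Of the 8, only Pdgfra was called in Bap1KO against WT, and it was lower (log2 -1.43, edgeR adjusted p = 0.00398). In Smn1OE against Bap1KO 6 of the 8 FAP markers were called lower, among them Pdgfra, Ly6a and Col1a1. Cd34 was called higher (1.47 on the log2 scale, edgeR adjusted p = 0.00612). In Smn1OE_K186R 5 were lower and Cd34 again higher (1.37, adjusted p = 0.00904). A list of 10 smooth muscle and pericyte markers summed to 7642 to 12992 CPM over all 12 libraries, with overlapping groups. Against Bap1KO, 3 of them were called higher in both SMN groups and none lower. These were Myh11, Rgs5 and Mcam, by 0.77, 1.65 and 1.46 on the log2 scale in Smn1OE. Against WT, Des (-1.14 and -1.31) and Smtn (-0.57 and -0.65) were called lower in Smn1OE and Smn1OE_K186R. Mcam was called higher than in WT in Smn1OE only (1.03, edgeR adjusted p = 0.0475), and Myh11 and Rgs5 in neither SMN group. Smtn was also called lower in Bap1KO against WT (-0.43, edgeR adjusted p = 0.0349). Endothelial markers summed to at most 6.48 CPM and myogenic markers to at most 0.685 CPM, with Myf5 at 0 counts in every library. Macrophage markers summed to 20.4 to 34.3 CPM over all libraries. The 4 of them tested were called in both SMN groups against Bap1KO in mixed directions, Ptprc and Cd68 higher and Csf1r and Lyz2 lower. In Smn1OE the mean of Ptprc was 0.272 CPM against 0.00508 CPM in Bap1KO and that of Cd68 10.8 against 4.86 CPM, while Csf1r and Lyz2 changed by -1.27 and -0.72 on the log2 scale. Tenocyte markers summed to 29.5 to 46.8 CPM in WT, 22.3 to 39.8 CPM in Bap1KO and 11.2 to 13.4 CPM in the SMN libraries. Most of that difference was Tnmd, at a mean of 29.2 CPM in WT and 3.29 CPM in Smn1OE. Scx was higher than in WT in Bap1KO (log2 1.08, edgeR adjusted p = 0.0128), Smn1OE (0.69, adjusted p = 0.0212) and Smn1OE_K186R (0.65, adjusted p = 0.0282). Against Bap1KO, Scx was not called in Smn1OE (-0.39) or Smn1OE_K186R (-0.43). The part of these marker levels in the members' values was not tested, and in bulk samples fewer cells of a type and less RNA per cell cannot be told apart.

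Elastic fibres give skin, vessels and lung their recoil. They form outside the cell, where tropoelastin, the product of Eln, coacervates, is carried onto a scaffold of fibrillin microfibrils by fibulins, and is joined into an insoluble polymer when lysyl oxidases convert its lysines to aldehydes that condense into crosslinks. In muscle, fibroblast-like cells such as FAPs make much of the interstitial matrix.

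Promoter sequences of 6 members were taken from the RefSeq table (GRCm38.p6, 250 bases before to 50 bases after a listed start). Lox was left out of this step, and no entry was found for Eln, Mfap4 or Loxl1. The sequences of 4 members are shown because their genes gave the contrasting patterns described below. Mfap2 was the member called lower in Bap1KO, Fbln5 and Efemp1 are fibulins that differed in opposite directions in Bap1KO once media batch was blocked, and Fbn1 is the microfibril backbone. Each line runs 5′ to 3′ on the strand of the gene, and capitals mark the GC box letters GGGCGG on either strand. Mfap2 is at chr4:141010431-141010730 on the plus strand, Fbln5 at chr12:101819070-101819369 on the minus strand, Efemp1 at chr11:28852955-28853254 on the plus strand and Fbn1 at chr2:125506389-125506688 on the minus strand.
Mfap2: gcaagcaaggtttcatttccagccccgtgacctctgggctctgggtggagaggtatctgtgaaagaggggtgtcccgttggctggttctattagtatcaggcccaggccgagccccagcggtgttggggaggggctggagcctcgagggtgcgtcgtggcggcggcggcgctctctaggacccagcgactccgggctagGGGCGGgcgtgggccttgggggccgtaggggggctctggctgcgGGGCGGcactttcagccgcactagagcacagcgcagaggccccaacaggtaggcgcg
Fbln5: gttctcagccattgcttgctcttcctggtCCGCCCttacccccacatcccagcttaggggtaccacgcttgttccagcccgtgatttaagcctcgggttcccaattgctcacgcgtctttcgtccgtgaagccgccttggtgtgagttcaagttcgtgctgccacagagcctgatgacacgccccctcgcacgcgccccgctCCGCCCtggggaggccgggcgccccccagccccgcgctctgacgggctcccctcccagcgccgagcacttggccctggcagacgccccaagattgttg
Efemp1: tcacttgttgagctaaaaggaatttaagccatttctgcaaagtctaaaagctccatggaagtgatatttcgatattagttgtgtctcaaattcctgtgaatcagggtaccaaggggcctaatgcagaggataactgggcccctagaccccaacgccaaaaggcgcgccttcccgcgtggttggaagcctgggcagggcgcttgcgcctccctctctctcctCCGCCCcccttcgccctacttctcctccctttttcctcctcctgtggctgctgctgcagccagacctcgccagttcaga
Fbn1: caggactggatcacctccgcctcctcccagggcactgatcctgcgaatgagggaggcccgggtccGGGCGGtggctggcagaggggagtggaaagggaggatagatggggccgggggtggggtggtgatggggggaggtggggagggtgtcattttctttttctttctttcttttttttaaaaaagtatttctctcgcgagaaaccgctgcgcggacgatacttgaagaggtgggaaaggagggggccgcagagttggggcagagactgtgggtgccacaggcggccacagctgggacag
The windows shown for Mfap2 and Fbln5 held 2 GC boxes each and those of Efemp1 and Fbn1 held 1 each. A GC box was present in 35.7% of the 32851 promoter windows in the table. The AP-1 letters TGANTCA, searched on both strands, occurred once in the Efemp1 window and were present in 7.81% of all windows. TATAAA (13.6% of all windows) and CACGTG (7.15%) had no match in these 4 windows. The GC content was 68.0% for Mfap2, 65.7% for Fbln5, 60.3% for Fbn1 and 54.3% for Efemp1, against a median of 52.7% over all windows. Mfap2 and Fbln5 each have another listed start, and the windows of those starts held 0 GC boxes and had a GC content of 52.0% and 48.7%.

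Transcripts of Lox, Loxl1, Efemp1, Efemp2 and Fbn1 were abundant in these cultures, while Eln RNA was at a very low level. Compared per kilobase of exon, mean WT levels in CPM per kilobase ran from Lox (847), Efemp1 (410), Efemp2 (288), Loxl1 (195) and Fbn1 (128) through Fbln5 (33.5) and Mfap2 (25.5) to Ltbp4 (3.13), Mfap4 (2.43) and Eln (0.0934). In WT only the neighbours Ltbp4 and Mfap4 overlapped in their libraries. The order by mean was the same in all 4 groups, but more neighbours overlapped in the others: Efemp1 and Efemp2 in Bap1KO and both SMN groups, Efemp2 with Loxl1 and Mfap2 with Ltbp4 in both SMN groups, and Loxl1 with Fbn1 in Smn1OE_K186R. Ltbp4 and Mfap4 also overlapped in Bap1KO. Summed CPM of the 10 members averaged 8463 ± 1105 for WT and 8631 ± 1495 for Bap1KO, against 4060 ± 576 for Smn1OE and 5203 ± 989 for Smn1OE_K186R (SD, n = 3). CPM are TMM-scaled throughout, and Lox was the largest single part of each sum.

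**Figure D1:**
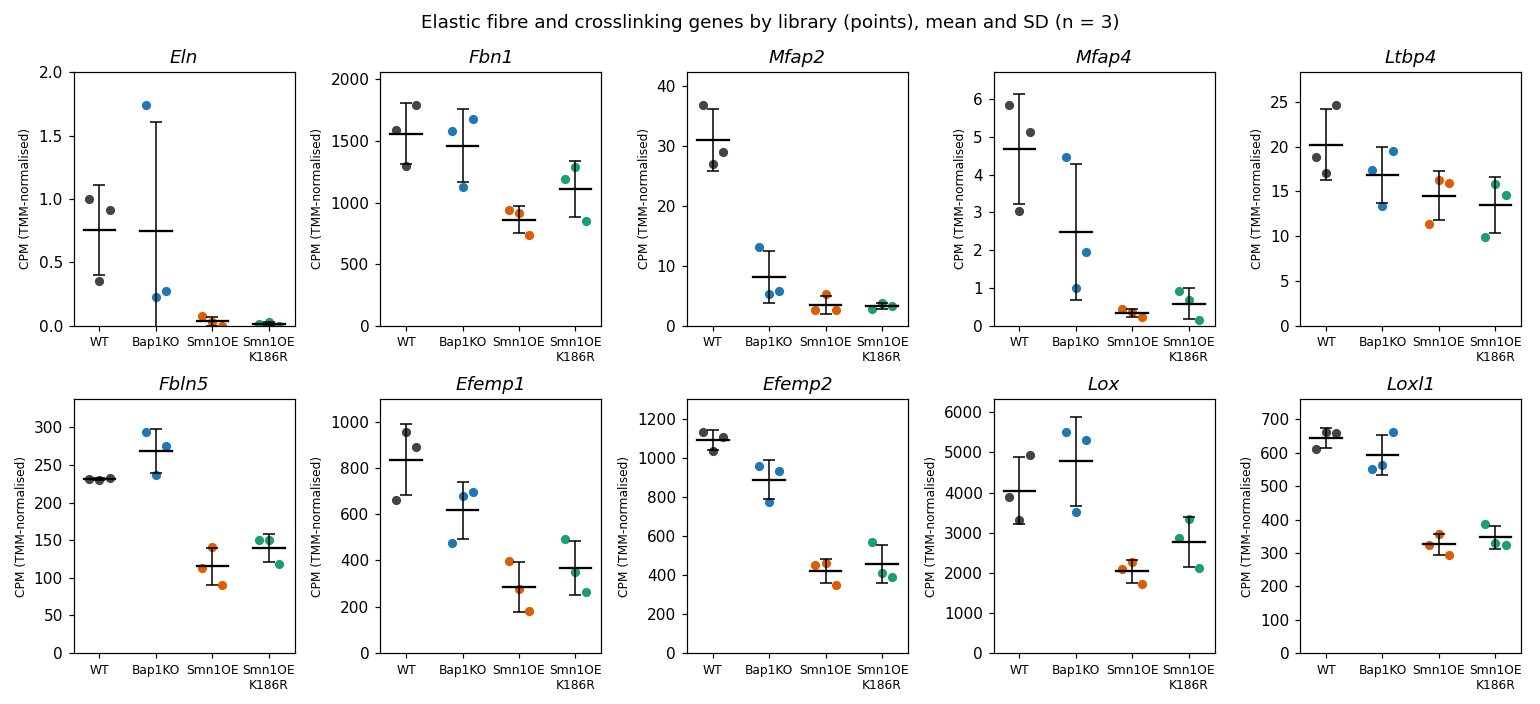
Level of each member in every library (y axis, TMM-normalised CPM, linear from 0, each panel on its own scale; x axis, the 4 groups; points are libraries in the order of replicates 1 to 3, bars are mean and SD, n = 3). In Smn1OE, 9 of the 10 genes have all libraries below all Bap1KO libraries, Ltbp4 being the exception, and Mfap2 is the gene that already sits low in Bap1KO.

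Eln, which encodes tropoelastin, was near the detection limit of these libraries and fell further in the SMN groups. The gene lies on chromosome 5 (134702593 to 134747323, minus strand, GRCm38). WT libraries 1 to 3 held 66, 23 and 59 Eln counts and Bap1KO libraries 117, 15 and 15. Smn1OE libraries held 5, 2 and 0 counts and Smn1OE_K186R libraries 1, 2 and 0. WT and Bap1KO overlapped, and 117 of the 147 Bap1KO counts came from replicate 1, whereas every SMN library lay below every library of the other two groups. Over summed counts scaled to total gene counts, without TMM factors, WT exceeded Smn1OE 18.8-fold (95% interval 8.91 to 47.6). WT exceeded Smn1OE_K186R 44.4-fold (14.9 to 218). These are exact binomial intervals that cover counting error only. The corresponding ratios of Bap1KO were 19.7 (9.35 to 49.97) to Smn1OE and 46.6 (15.6 to 229) to Smn1OE_K186R. Fitted log2 changes against Bap1KO were -4.28 (SE 1.00, edgeR adjusted p = 0.00744) in Smn1OE and -5.41 (SE 1.13, adjusted p = 0.00463) in Smn1OE_K186R. Both rest in part on Bap1KO replicate 1, without which they were -2.70 (6.50-fold lower, adjusted p = 0.0390) and -3.84 (14.3-fold lower, adjusted p = 0.0171). Without Smn1OE replicate 1 the change was -5.36, without Smn1OE_K186R replicate 2 it was -6.20, and limma voom gave -4.67 for Smn1OE_K186R. These changes concern a transcript that did not exceed 1.74 CPM in any library.

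In Bap1KO against WT, 1 of the 10 members was called lower and none higher, where 6.37% of all tested genes were called lower and 3.36% higher. That member was Mfap2, which encodes the microfibril-associated glycoprotein MAGP-1, a fibrillin and growth factor binder. Mfap2 stood at 36.8, 27.0 and 29.0 CPM in WT replicates 1 to 3 and at 13.1, 5.28 and 5.84 CPM in Bap1KO, so that no libraries overlapped. The mean fell from 30.9 ± 5.18 to 8.07 ± 4.35 CPM (SD, n = 3), 3.82-fold lower (log2 -1.93, SE 0.34, edgeR adjusted p = 0.00626). The call held in each of the 14 alternative analyses of this comparison. Besides Mfap2, the libraries of Fbln5 (higher) and Efemp2 (lower) did not overlap between the groups, 3 members in all, where 32.3% of tested genes did not overlap. The median log2 change of the 10 members was -0.20, against 0.00 over all tested genes.

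Because the media batches pair each WT library with a Bap1KO library, the same contrast was fitted with the batch as a block. That fit used only the libraries of these 2 groups, filtered anew, and had fewer residual degrees of freedom than the fit of 4 groups. In it 7 of the 10 members passed, 5 lower and 2 higher. Under that fit 18.5% of 15380 genes were called lower and 15.4% higher, so the higher calls were near the share over all genes. The fibulins split. Efemp1 (fibulin-3) was lower in all 3 batches, with ratios on the log2 scale of -0.48, -0.49 and -0.36 (blocked -0.42, adjusted p = 0.000681, against 0.350 without the block). Efemp2 (fibulin-4, which brings lysyl oxidase to tropoelastin) was also lower in all 3, at -0.24, -0.42 and -0.25 (blocked -0.29, adjusted p = 0.00604, against 0.225). Fbln5 (fibulin-5, which tethers elastin to cells and microfibrils) was higher in all 3, at 0.34, 0.04 and 0.24 (blocked 0.22, adjusted p = 0.0227, against 0.377). Fbln5 was the most even member within WT, at 232, 230 and 233 CPM, and its Bap1KO libraries at 293, 236 and 275 CPM all lay above them.

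Microfibril partners went the way of Mfap2 within batches. Mfap4, a microfibril-associated glycoprotein, was at 5.84, 3.04 and 5.12 CPM in WT and 4.47, 1.01 and 1.96 CPM in Bap1KO, groups that overlapped, with log2 ratios of -0.39, -1.59 and -1.39 within the batches (blocked -1.06, adjusted p = 0.00674, against 0.320). Ltbp4, a latent TGF-beta binding protein that takes part in elastic fibre assembly, was lower in all 3 batches by smaller steps (blocked -0.25, adjusted p = 0.0332, against 0.455). Fbn1, the fibrillin that forms the microfibril itself, was not called under either fit (-0.09 without the block, 95% interval -0.49 to 0.31, and -0.08 with it, adjusted p = 0.313). Lox, the main lysyl oxidase, was higher in all 3 batches, by 0.50, 0.09 and 0.10 (blocked 0.25, adjusted p = 0.0480, against 0.510). Its paralogue Loxl1 was not called under either fit (-0.12, interval -0.34 to 0.10). With the batch as a random effect in limma voom, 3 members passed, Mfap2, Efemp2 (adjusted p = 0.0446) and Mfap4 (adjusted p = 0.0173), all lower. FAP marker sums in Bap1KO reached below the WT range, as given above, and the part of that in these differences was not tested.

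**Figure D2:**
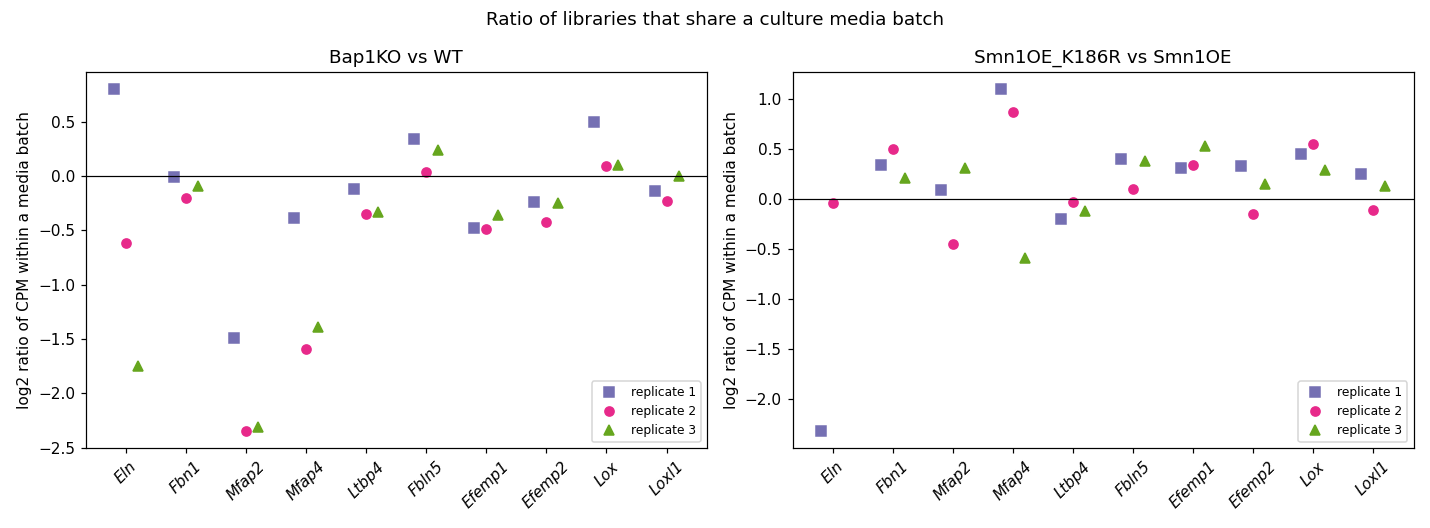
Log2 ratio of CPM between the libraries that share a culture media batch (y axis), for each member (x axis), Bap1KO over WT on the left and Smn1OE_K186R over Smn1OE on the right; each marker is 1 of 3 batches and the line marks no difference. On the left all 3 markers lie below the line for Mfap2, Mfap4, Ltbp4, Efemp1, Efemp2 and Fbn1 and above it for Fbln5 and Lox; on the right Eln has no marker for replicate 3, where both libraries had 0 counts.

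In Smn1OE against Bap1KO, 9 of the 10 members were called lower and none higher, where 17.7% of all tested genes were called lower and 15.8% higher. All libraries of the same 9 genes lay below those of Bap1KO, which held for 24.7% of tested genes. The median log2 change of the members was -1.15, against -0.01 over all tested genes. Under scaling by library size alone, which moved the split of all calls from 2628 higher and 2939 lower to 3499 higher and 2249 lower, the same number of members was called lower.

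The fibulins and the lysyl oxidases among the members fell by close amounts. Fbln5 stood at 113, 141 and 90.9 CPM in Smn1OE replicates 1 to 3, less than any Bap1KO library (2.33-fold lower, log2 -1.22, SE 0.15, edgeR adjusted p = 0.000283). Efemp2 stood at 450, 459 and 350 CPM against 958, 773 and 934 CPM in Bap1KO (2.12-fold lower, adjusted p = 0.000574). Efemp1 stood at 397, 276 and 182 CPM against 476, 679 and 695 CPM (2.16-fold lower, adjusted p = 0.0107). For these 3 genes no libraries overlapped, and Efemp1 was the most uneven of them within Smn1OE. Lox fell from 5504, 3511 and 5311 CPM to 2101, 2279 and 1728 CPM (2.35-fold lower, SE 0.21 on the log2 scale, adjusted p = 0.00159). Loxl1, which is needed for elastin crosslinking in adult tissues, fell from 553, 562 and 661 CPM to 325, 356 and 294 CPM (1.82-fold lower, SE 0.10 on the log2 scale, adjusted p = 0.000265). The lysyl oxidase libraries of both groups were likewise fully separated.

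Among the microfibril genes the size of the change varied most. Fbn1 fell from 1580, 1126 and 1680 CPM to 938, 911 and 734 CPM (1.70-fold lower, adjusted p = 0.00903). Mfap4 fell to 0.435, 0.373 and 0.227 CPM, or 29, 25 and 12 counts (7.09-fold lower, log2 -2.83, SE 0.63, adjusted p = 0.00562). Without Bap1KO replicate 1 it was 4.23-fold lower (log2 -2.08, adjusted p = 0.0241). Mfap2, already low in Bap1KO, stood at 2.70, 5.27 and 2.63 CPM (2.28-fold lower, adjusted p = 0.0209), with Smn1OE replicate 2 just under the lowest Bap1KO library. The Mfap2 call was lost without Bap1KO replicate 1 (adjusted p = 0.103), Smn1OE replicate 1 (0.0786) or Smn1OE replicate 3 (0.0802), and in the fit of these 2 groups alone (0.0647). Ltbp4 was the member that did not pass: its libraries at 11.4, 16.2 and 15.9 CPM overlapped those of Bap1KO at 17.4, 13.4 and 19.6 CPM (log2 -0.21, interval -0.67 to 0.25, adjusted p = 0.467).

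**Figure D3:**
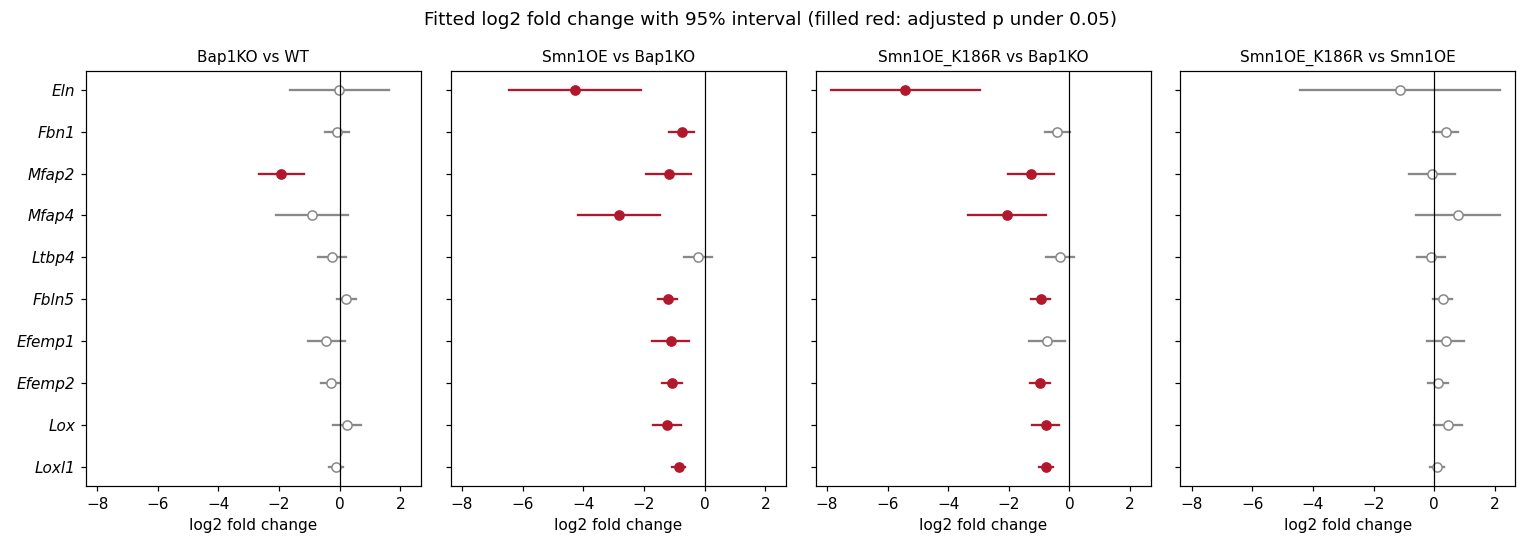
Fitted log2 fold change (x axis) with its 95% interval (bars) for each member (y axis) in 4 comparisons; filled red points have an adjusted p under 0.05 over all tested genes. Filled points number 1, 9, 7 and 0 from left to right, and Ltbp4 is open in all 4 panels.

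In Smn1OE_K186R against Bap1KO, 7 of the 10 members were called lower and none higher, where 16.5% of all tested genes were called lower and 16.1% higher. Libraries of these 7 lay wholly below those of Bap1KO, which held for 22% of tested genes. This comparison uses the same 3 Bap1KO libraries as the one before. Under scaling by library size alone the split of all calls went from 2670 higher and 2746 lower to 3381 higher and 2078 lower. Fbln5 stood at 150, 151 and 119 CPM (1.92-fold lower than in Bap1KO, adjusted p = 0.00114), Efemp2 at 567, 413 and 387 CPM (1.95-fold lower, adjusted p = 0.00116) and Loxl1 at 386, 330 and 322 CPM (1.71-fold lower, adjusted p = 0.000542). These 3 and Eln kept their call in every alternative analysis of this comparison. Lox at 2862, 3329 and 2108 CPM was called (1.73-fold lower, adjusted p = 0.0142), and its highest library lay just below the lowest Bap1KO library. The calls of Lox, Mfap2 (2.43-fold lower, adjusted p = 0.0157) and Mfap4 (4.14-fold lower, adjusted p = 0.0206) were each lost without Bap1KO replicate 1, at adjusted p = 0.0505, 0.0679 and 0.106, and Mfap4 was then 2.48-fold lower. Mfap4 was also lost in the fit of these 2 groups alone (0.0630).

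The other three members of that comparison overlapped between groups. Efemp1 at 492, 348 and 264 CPM gave -0.75 (interval -1.35 to -0.14, adjusted p = 0.0586) and was called by DESeq2 (0.0218), by limma voom (0.0211), without a filter on low counts (0.00100), without Bap1KO replicate 1 (0.0472) and without Smn1OE_K186R replicate 1 (0.0258). Fbn1 at 1191, 1289 and 850 CPM gave -0.40 (interval -0.80 to 0.01, adjusted p = 0.118) and was called without Bap1KO replicate 2 (0.0342) or without a filter (0.0252). Ltbp4 at 9.96, 15.9 and 14.6 CPM gave -0.32 (interval -0.77 to 0.14, adjusted p = 0.265) and was called in no alternative.

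Between the SMN forms, Smn1OE_K186R against Smn1OE, 0 of the 10 members (0%) and 0 of all tested genes were called by edgeR, and DESeq2 and limma voom also called 0 members. At an unadjusted p under 0.05 there were 0 members and 388 of 16597 genes, and the lowest unadjusted p of a member was 0.0553, for Lox. The libraries of the 2 groups overlapped for every member. Within the media batches that both groups share, 4 members were higher with the K186R form in all 3 batches: Lox by 0.45, 0.55 and 0.29, Fbn1 by 0.34, 0.50 and 0.21, Efemp1 by 0.31, 0.34 and 0.53 and Fbln5 by 0.40, 0.10 and 0.38 on the log2 scale. Efemp2 and Loxl1, also abundant, and Mfap2 and Mfap4 were each higher in 2 batches and lower in 1. Ltbp4 was lower in all 3, at -0.20, -0.03 and -0.12. The share of all genes higher in all 3 batches was not counted. With the batch as a block, 0 of the 9 members tested passed, where 0.221% of genes did, at adjusted p = 0.0534 for Lox, 0.0622 for Efemp1, 0.113 for Fbn1 and 0.251 for Fbln5. Intervals without the block reached from -0.01 to 0.90 for Lox and from -0.04 to 0.77 for Fbn1, and those of all 10 members included 0.

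Against WT, Eln, the member fibulins and oxidases, Fbn1, Mfap2 and Mfap4 were called lower in both SMN groups, and Ltbp4 in Smn1OE_K186R. Smn1OE had 9 members called lower and none higher (26.6% of tested genes lower and 23.8% higher), all but Ltbp4 (-0.48, adjusted p = 0.0758). Ltbp4 was called there by limma voom (0.0367), without a filter on low counts (0.0228), in the 2 groups alone (0.0495) and with a replicate block (0.0458). All 10 had libraries wholly below those of WT (32.7% of tested genes). Smn1OE_K186R had all 10 called lower (26.5% of tested genes lower and 24% higher), 9 of them, all but Lox, with no overlap (30.9%). Both comparisons use the same 3 WT libraries. Mfap2 was 8.72-fold lower in Smn1OE (adjusted p = 5.3e-05) and 9.27-fold lower in Smn1OE_K186R (adjusted p = 4.8e-05). Mfap4 was 13.3-fold and 7.78-fold lower (adjusted p = 0.000557 and 0.00169), Efemp1 2.93-fold and 2.27-fold lower (adjusted p = 0.000879 and 0.00431), and Efemp2 2.601-fold and 2.39-fold lower (adjusted p = 3.7e-05 and 6.3e-05). Fbln5 and Lox, the members that were higher in Bap1KO in the blocked fit, were 2.01-fold and 1.99-fold lower in Smn1OE than in WT (adjusted p = 0.000193 and 0.00218). In Smn1OE_K186R, Lox (1.46-fold lower, adjusted p = 0.0444) and Fbn1 (1.403-fold lower, 0.0441) lost their calls under RLE scaling, under library size alone and without WT replicate 1 or 3 or Smn1OE_K186R replicate 1 or 3, with adjusted p up to 0.176. Ltbp4 (1.499-fold lower, 0.0349) lost its call under library size alone and without WT replicate 1 or 3 or Smn1OE_K186R replicate 1, with adjusted p up to 0.147. Scaling by library size alone changed the split of all calls from 3950 higher and 4420 lower to 4875 and 3745 in Smn1OE, and from 3978 higher and 4406 lower to 4807 and 3652 in Smn1OE_K186R.

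The 45 pairs of members had Pearson correlations of log2 CPM between 0.35 and 0.98, with a median of 0.85 (n = 12 libraries, which share the group structure and the batches). Pairs among the 2939 genes called lower in Smn1OE against Bap1KO had a median of 0.79, so the members' value is near that of other genes with that difference. Efemp2 and Loxl1 were the closest pair (0.98), followed by Fbn1 and Lox (0.96), and Ltbp4 and Efemp1 the most distant (0.35). Among 8675 tested genes at a mean of at least 10 CPM, those most like Eln included Cdc42ep1 (0.966), Tsen15 (0.964), Dnm1 (0.962) and Egln1 (0.961). The 5 most like Fbln5 were Nipsnap2 (0.983), Rnase4 (0.982), Acp2 (0.977), Tnfrsf1b and Vegfd (0.976 each). Vegfd, a secreted growth factor, went from 64.2 CPM in WT and 73.3 CPM in Bap1KO to 11.1 CPM in Smn1OE and 15.6 CPM in Smn1OE_K186R.

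A wider list of 51 genes that act on elastic fibres or their microfibrils, of which 46 were tested, moved in both directions. In Smn1OE against Bap1KO 18 of the 46 were called lower and 7 higher, where 17.7% of all tested genes were lower and 15.8% higher, and the median log2 change was -0.28 against -0.01 over all tested genes. The higher calls were thus near the share over all genes, and the same shares apply to the counts by role that follow, each over few genes. All 4 microfibril-associated genes tested were lower. Mfap5 (MAGP-2), a relative of Mfap2, went from 407 ± 68.7 to 170 ± 21.8 CPM (log2 -1.26, adjusted p = 0.000703), Emilin1, found at the elastin to microfibril boundary, from 138 ± 36.7 to 66.9 ± 12.1 CPM (adjusted p = 0.00213), Emilin2 from 301 ± 40.9 to 147 ± 26.0 CPM (adjusted p = 0.00110) and Vcan, a proteoglycan that binds fibrillin, from 407 ± 111 to 155 ± 31.5 CPM (adjusted p = 0.00193) (SD, n = 3). Of the ADAMTS-like regulators 3 of 8 were lower: Adamtsl4, a fibrillin binder, by 1.84 (56.0 ± 5.86 to 15.6 ± 2.23 CPM, adjusted p = 8.7e-05), Adamtsl3 by 2.50 and Adamtsl1 by 2.31 on the log2 scale.

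Crosslinking enzymes beyond the members divided. The lysyl hydroxylases Plod1 (-1.26, adjusted p = 0.000330) and Plod3 (-0.80, adjusted p = 0.000463) and the lysyl oxidase relatives Loxl2 (-0.60) and Loxl3 (-0.87) were lower in Smn1OE than in Bap1KO. Of 10 tested, 3 were higher. Tll1, a tolloid protease of the family that activates lysyl oxidase, stood at 4.63, 8.56 and 7.30 CPM in Bap1KO and at 17.8, 22.1 and 35.2 CPM in Smn1OE (log2 1.87, adjusted p = 0.00157). Atp7a, the copper transporter that supplies lysyl oxidase, rose by 1.63 to 3.57 CPM (adjusted p = 0.0188), and the transglutaminase Tgm2 rose by 0.83 (adjusted p = 0.0296). Bmp1, of the same family as Tll1 and far more abundant, was not called. It stood at 518 CPM in Bap1KO and 513 CPM in Smn1OE (-0.01, edgeR adjusted p = 0.916). Atp7a lost its call without Bap1KO replicate 1 (0.0658), Bap1KO replicate 2 (0.0542) or Smn1OE replicate 1 (0.0758), and Tgm2 without Bap1KO replicate 1 (0.0622), Smn1OE replicate 2 (0.0827) or Smn1OE replicate 3 (0.0694). Among secretion and cutis laxa genes 3 of 7 were lower, led by Pycr1, a proline synthesis enzyme (-1.43, adjusted p = 0.000853). Of the latent TGF-beta binding proteins Ltbp2 was lower (-1.09, adjusted p = 0.00595) and Ltbp1 higher (0.56, adjusted p = 0.0445), although the Ltbp1 call was lost when any library of these groups except Bap1KO replicate 2 was left out, with adjusted p up to 0.143. Of the 4 other fibulin genes tested 1 was called, Fbln1, which was lower (-1.15, edgeR adjusted p = 0.0129, and 0.0531 without Bap1KO replicate 1). Fbln2, at 4238 CPM in Bap1KO and 3468 CPM in Smn1OE, was not called (-0.29, edgeR adjusted p = 0.092).

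Elastin-degrading proteases gave 3 calls higher and 2 lower of 6 tested. Mmp9, a gelatinase, went from 0.495 ± 0.0512 to 1.89 ± 0.352 CPM (log2 1.92, adjusted p = 0.00128), and the cathepsin gene Ctsk from 197 ± 19.5 to 140 ± 10.98 CPM (adjusted p = 0.00904) (SD, n = 3). The remaining 2 higher calls, Mmp12 at 0.429 CPM and Ctsl, were lost without Bap1KO replicate 1 (adjusted p = 0.0872 and 0.0748), Smn1OE replicate 1 (0.0779 and 0.0686) or Smn1OE replicate 3 (0.0605 and 0.0525), and Mmp12 also without Bap1KO replicate 3 (0.0775). The other lower call, Mmp14 (-0.32, edgeR adjusted p = 0.0247), was lost without Bap1KO replicate 1 (0.0979) or 3 (0.0758). It was also lost without Smn1OE replicate 1 (0.0969) or 3 (0.0706). None of the 3 TGF-beta ligand genes was called.

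In Smn1OE_K186R against Bap1KO 18 of the 46 were lower and 5 higher (16.5% and 16.1% of all tested genes), with Tll1 (1.83, adjusted p = 0.00201), Atp7a (2.22, adjusted p = 0.00474), Mmp9 (1.82, adjusted p = 0.00187), Ltbp1 (0.62, adjusted p = 0.0293) and Loxl4 (0.58, adjusted p = 0.0212) as those higher. The microfibril-associated genes were again all lower, though Vcan (-0.82, adjusted p = 0.0241) overlapped between groups and lost its call without Bap1KO replicate 1 or 3 or Smn1OE_K186R replicate 1 or 3. Ltbp1, Ltbp2, Adamtsl1, Mmp14 and Loxl4 also lost theirs when single libraries were left out, at adjusted p up to 0.0956, 0.134, 0.0974, 0.0792 and 0.0825. Those libraries were Bap1KO replicate 1 (all but Ltbp2), Bap1KO replicate 3 (all but Loxl4), Smn1OE_K186R replicate 1 (Mmp14), replicate 2 (all but Mmp14) and replicate 3 (Ltbp1, Ltbp2 and Adamtsl1). Fbln1 lost its lower call without Bap1KO replicate 1 (edgeR adjusted p = 0.0577). Aldh18a1 lost its lower call without Bap1KO replicate 1 (0.0734) or Smn1OE_K186R replicate 1 (0.0583). Against WT, Smn1OE had 24 lower and 9 higher (26.6% and 23.8% of all tested genes) and Smn1OE_K186R 24 lower and 8 higher (26.5% and 24%), and none of the 46 was called between the SMN forms. In Bap1KO against WT, where 3.36% of all tested genes were higher and 6.37% lower, 3 of the 46 were higher, Adamts6 (0.55), Adamtsl4 (0.59) and Mmp12, and 2 lower, Adamts10 (-0.38) and Ctsl (-0.32), with adjusted p from 0.0208 to 0.0448. Each of these 5 calls was lost when WT replicate 1 or 2 was left out, with adjusted p up to 0.158. Adamtsl4 and Ctsl were lost without any 1 of the 6 libraries, Adamts10 without any but Bap1KO replicate 1, Mmp12 also without WT replicate 3 or Bap1KO replicate 2, and Adamts6 also without Bap1KO replicate 3. With the batch as a block 19 of 45 were lower and 6 higher (18.5% and 15.4% of genes in that fit), among them Fbln1 (-0.98, adjusted p = 2.2e-05) and Mfap5 (-0.60, adjusted p = 0.000104), each lower in all 3 batches.

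**Figure D4:**
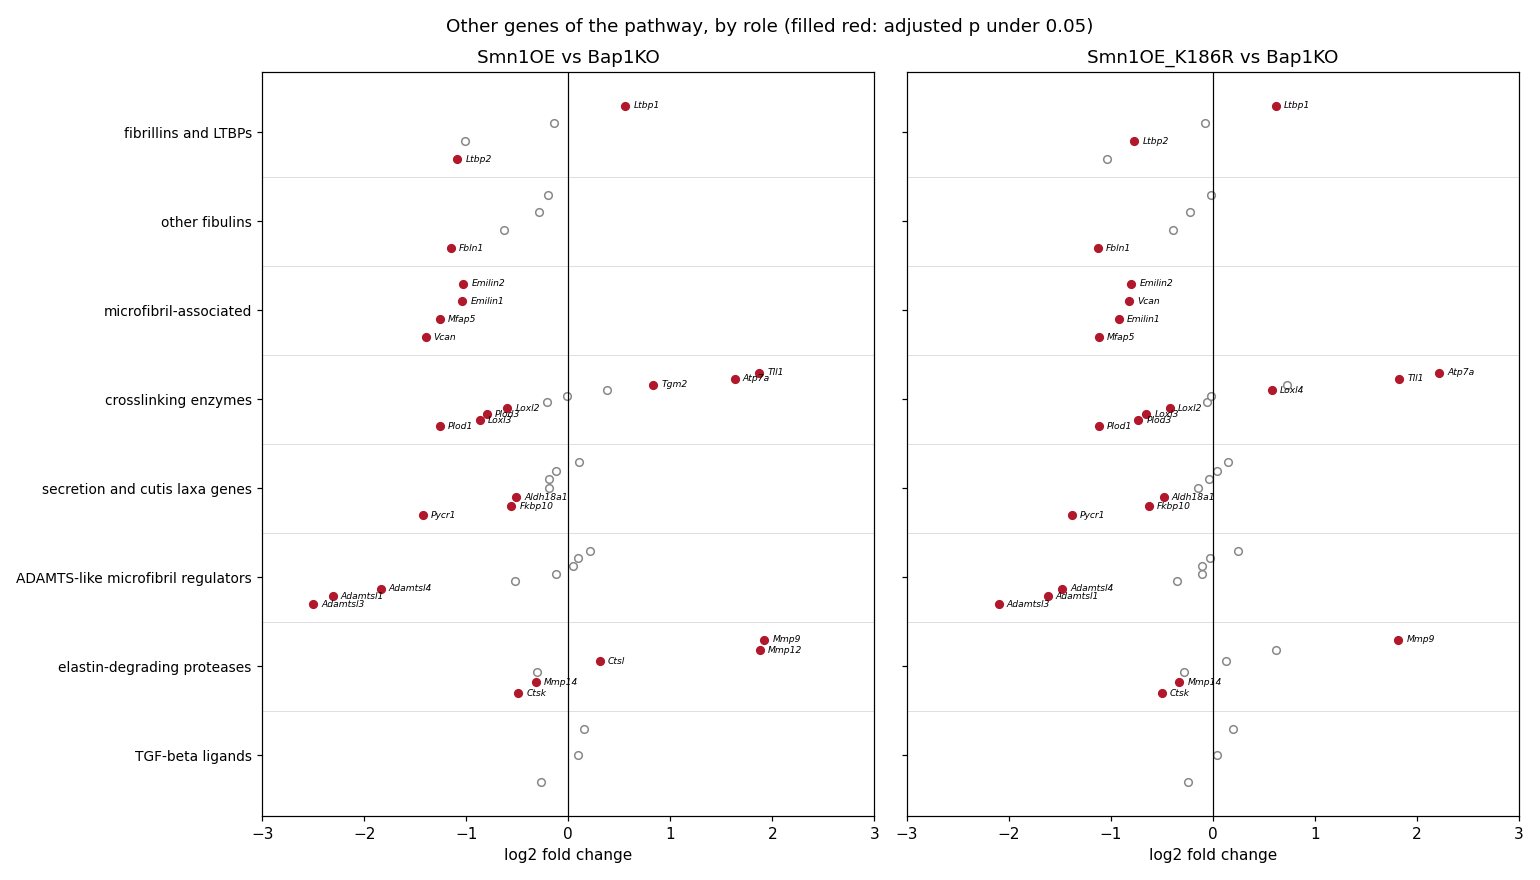
Fitted log2 fold change (x axis) of the 46 tested genes of the wider list, by role (y axis), for both SMN groups against Bap1KO; each point is a gene and filled red points, with names, have an adjusted p under 0.05 over all tested genes. The microfibril-associated row holds only filled points left of 0, while the crosslinking row has filled points on both sides.

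Some of the counted exons overlap other genes, and the strand setting of the counting is not stated, so reads there could be split or lost. Mfap4 shares 89 exon bases with Mapk7 on the opposite strand and Efemp2 shares 173 with Mus81. Fbn1 shares 2442 with Gm9913 and Lox shares 30 with AC161119.1, in each case on the opposite strand. Mapk7 lay between 27.7 and 32.9 CPM in all 12 libraries, above Mfap4 in every one of them, and AC161119.1 between 39.9 and 126 CPM, far below Lox.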

How the data were processed

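The authors deposited 1 table of raw read counts per library (55335 Ensembl gene rows). The submitters' processing notes name HTSeq 0.9.1, STAR 2.6.1, cutadapt 1.4.2, CASAVA 1.8.2, DESeq2 and build GRCm39. The deposited counts are whole numbers with no normalization; annotation release and strand setting are not given in the sources used here. Closing rows that name no gene (11.1 to 14.6% of records) were left out. Symbols, exon lengths and positions came from GENCODE M21 (GRCm38), which matched 55154 IDs; all 10 members and 51 of 51 wider genes were found.

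Tests on the counts used edgeR 4.0.16 (R 4.3.3): TMM scaling, filterByExpr (minimum count 10), a quasi-likelihood fit of 4 groups over 12 libraries (8 residual degrees of freedom, common biological coefficient of variation 0.179, prior count 0.125), 2-sided, Benjamini-Hochberg adjusted over 16597 genes, called under 0.05. Intervals are 95% from the fit. Scripts were tested on simulated data. An exact permutation test of 3 against 3 cannot go below p = 0.1 and was not used.

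The labels give the media batch. Deviations from group means correlated at 0.311, 0.435 and 0.24 within the batches of WT and Bap1KO and at 0.384, 0.302 and 0.431 within those of the SMN groups, and at -0.349 to 0.049 and -0.305 to -0.041 between batches, so these 2 comparisons were also fitted with the batch as a block. Alternatives were RLE, upper-quartile and library-size scaling, DESeq2 1.42.0, limma 3.58.1 voom with the batch as random effect (correlation 0.45), no filter, the 2 groups alone, a replicate block and each library left out. The same alternatives for genes outside the set were added after seeing the data.

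The members and lists were chosen with earlier results of these data known. Named are all members, up to 4 called genes per pathway list and comparison by smallest adjusted p, the 5 genes most correlated with Eln (1 of them is not reported here) and with Fbln5, and the marker genes at the highest level. Tll1, Atp7a, Tgm2 and Mmp14 in Smn1OE, Atp7a and Loxl4 in Smn1OE_K186R, and Mfap5 and Fbln1 in the blocked fit, were named after their values were seen. So were Fbln2 and Bmp1 in Smn1OE, and Scx, Des and Smtn among the markers.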

Additional observations from a re-analysis of the deposited data

How the results depend on the processing

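Of 838 alternative values of the members' fold changes, 773 kept direction and side of the threshold, 31 lost and 19 gained a call, and 15 changed sign, none of them a called value. Eln in Bap1KO against WT (-0.01) turned to 0.01 under RLE scaling and in the 2 groups alone, 0.02 under library size alone, 0.00 under DESeq2 and 0.00 without a filter, and to 0.25, 0.16, 0.42 and 0.38 without WT replicate 1, WT replicate 3, Bap1KO replicate 2 or Bap1KO replicate 3 (range with single libraries left out -1.58 to 0.42). Fbn1 there turned to 0.03 without WT replicate 3 and 0.06 without Bap1KO replicate 2 (range -0.21 to 0.06). Between the SMN forms Mfap2 turned to 0.32 without Smn1OE replicate 2, and without Smn1OE_K186R replicate 1 Mfap2 gave 0.01, Ltbp4 0.07 and Efemp2 -0.07 (ranges -0.26 to 0.32, -0.26 to 0.07 and -0.07 to 0.22). Why these values moved was not tested.

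Members called in Bap1KO against WT numbered 1 in the reported fit, 3 under limma voom and 7 with the replicate block; all genes called numbered 1614, 2592 under DESeq2, 4635 under limma voom and 5207 with the block. For the SMN forms the block raised all genes called from 0 to 35. Against Bap1KO the SMN groups share only replicate numbers, not batches, and same-numbered libraries correlated at -0.23 to 0.072. Fits of the 2 groups alone, over 15640 genes with Smn1OE and 15617 with Smn1OE_K186R, called 5044 and 3462 genes, and with a replicate block 2802 and 1475, with 4 members called in Smn1OE_K186R, against 5567 and 5416 genes and 7 members in the fit of all 4 groups. Under this block the Efemp1 and Mfap2 calls in Smn1OE had adjusted p = 0.0547 and 0.12.

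Leaving out single libraries gave 1 member and 535 to 1457 genes in Bap1KO against WT, 8 to 9 members and 3512 to 5627 genes in Smn1OE against Bap1KO, 5 to 8 and 3385 to 5309 in Smn1OE_K186R against Bap1KO, 9 and 6944 to 7796 in Smn1OE against WT, 7 to 10 and 6823 to 7782 in Smn1OE_K186R against WT, and 0 and 0 between the SMN forms. No fit of the SMN groups alone tested Eln, which had too few counts there. Counting error is large for Eln in the SMN groups, at 0 to 5 counts a library.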
